A study of Rattus norvegicus with 35 samples.

Results

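The kidney cortex of male rats on a potassium-deficient diet (DK, 6 libraries) was compared with that of male rats on a normal potassium diet (NK, 6 libraries), which uses 12 of the 35 RNA sequencing libraries of the series. Libraries were placed by the sex and diet in their labels, and the comparison covers the 14264 genes, of 32545 in the deposited table, with an FPKM (fragments per kilobase of gene, scaled to library size) of at least 1 in at least 5 of the 35 libraries. The 165 genes just inside that filter reached 1 FPKM in 5 libraries and had a median level of 0.585 FPKM in the 12 male libraries, and the 232 genes just outside it reached 1 FPKM in 4 libraries and had a median of 0.494. Every library was labelled wild type, and every diet held 4% NaCl, so both groups were on high salt. Rats received a telemeter for blood pressure when 8 weeks old, and their cortex was frozen after 5 weeks of diet. NK held 0.36% potassium, and the potassium content of DK was not given in the sources used here. Another male group, on a high potassium diet of 1.41% (HK, 6 libraries), and the corresponding females are mentioned only where values are set beside the male comparison. The labels name no strain. They number the samples but do not say that each was its own animal, and p-values here reflect the spread among samples, part of which may be technical.

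The kidney holds on to potassium when the diet lacks it, mainly in the distal nephron and collecting duct, where alpha-intercalated cells exchange protons for potassium. In the proximal tubule, potassium depletion is known to raise the production of ammonia from glutamine, with the carbon skeleton entering gluconeogenesis. Prolonged potassium depletion is also a textbook cause of tubular growth and interstitial injury. The comparison asks what a lack of potassium changes in the male cortex under high salt.

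Recovered reads were 13.99 to 16.04 M per library in the 12 libraries. The sum of 4 Y-linked genes was at least 54.13 FPKM in every male library of the series and at most 0.1244 in every female one. The proximal tubule phosphate transporter Slc34a1 stood between 793 and 1622 FPKM and the thick ascending limb protein Umod between 619.9 and 1482 in the 12 libraries, each a marker of its tubule segment. Mitochondrial transcripts took 12.2 ± 0.791% of reads in DK and 9.71 ± 1.28% in NK (SD, n = 6 each; exact permutation test over 924 arrangements, two-sided p = 0.002165, the smallest it can give). The library size implied by the authors' scaling, divided by the sum of reads, was 0.9976 in DK and 1.097 in NK (same test and p). The scaling between libraries thus moved with diet. Results with library sums are given beside the counts of part of the lists they moved, and a list without them is not thereby unmoved. The sample numbers in the labels lie in the 200s for DK replicates 1 to 5 and in the 300s for DK replicate 6 and all 6 NK libraries. Their meaning is not stated, and the number series and diet are almost confounded.

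At a Benjamini-Hochberg adjusted p under 0.05 in limma, 680 genes (4.77% of those tested) changed, 416 higher (2.92%) and the others lower (1.85%) in DK. Most changes were small. The median absolute log2 change of the called genes was 0.524, and 61 rises and 11 falls exceeded 2-fold. Log2 changes here are differences of mean log2(FPKM + 0.5), a scale that understates the change of low genes. The share called was 4.07% in the lowest of 5 equal bins of genes by mean FPKM and 7.96% in the highest. For 541 genes (3.79%) no DK library overlapped the NK range. An unadjusted p under 0.05 was reached by 2932 genes.

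The count depended on single libraries and on the sample number series. It fell to 294 without DK replicate 2, to 49.3% of its value without NK 2, and to 364 without DK 4, 398 without NK 1, 400 without DK 6, 424 without DK 5 and 440 without NK 3, and 238 genes passed in all 12 such fits. With the number series as a covariate 87 genes passed, 64 higher and 23 lower, 78 of them among the 680. All 680 kept their direction in that fit, where their median standard error went from 0.133 to 0.186. DK replicate 6, the DK library from the 300s, lay above the highest NK library for 395 of the 416 rises and below the lowest for 234 of the falls. DK replicate 1 did so for 248 and 193, the fewest of the 6. All 6 DK libraries went into the calls, so these positions follow in part from the choice of genes and are no separate check of the number series. Principal component 1, with 20.4% of the variance among the 12 libraries, placed DK replicate 1 at -6.29 and DK 3 at 6.94, the other 4 DK libraries between 21.21 and 28.76, and NK between -29.45 and -9.28, with NK 2 lowest. When the authors' scaling was replaced by library sums, the median of all genes moved from -0.0001 to -0.13, and 245 genes were higher and 1038 lower, or 19.1% of calls higher against 61.2%. The 65 genes called as reported, with the number series and in every leave-one-out fit (0.456% of those tested) are called robust below.

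**Figure D1:**
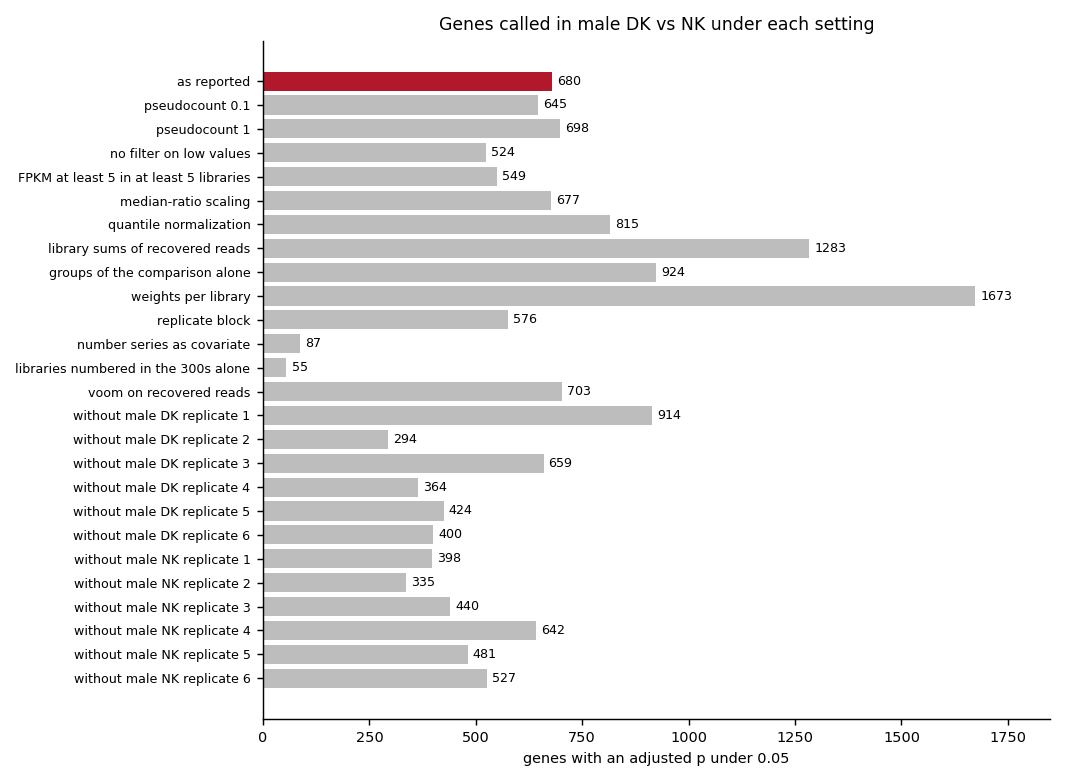
Number of genes with an adjusted p under 0.05 in male DK vs NK (horizontal axis) as reported and under 25 other settings (1 bar each). The count was 680 as reported, 87 with the sample number series as a covariate, 1283 with library sums and 294 to 914 when a library was left out.

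Genes of ammonia production and transport rose. The list held 20 tested members, of which 8 (40% of the list, against 2.92% of all genes) rose and none fell, with a median log2 change of 0.29 against -0.0001 for all genes. With library sums 7 rose, and the median was 0.16 against -0.13 for all genes. Slc38a3, which carries glutamine into the proximal tubule, ranged from 22.9 to 100.2 FPKM in NK (median 52.4) and from 91.6 to 301.5 in DK (median 140.4). DK replicates 1 and 4 lay below NK 2, the highest NK library, and every DK library lay above the other 5 NK libraries. The log2 change was 1.70 (SE 0.37, limma adjusted p = 0.00641). Glud1, the glutamate dehydrogenase that frees ammonium from glutamate, stood between 247.8 and 323.4 FPKM in NK (median 269.5) and between 405.5 and 819 in DK (median 562), with no overlap (log2 change 1.04, SE 0.16, adjusted p = 0.000235). Pck1, the carboxykinase that turns the remaining carbon towards glucose, went from 630.5 to 1870.4 FPKM in NK (median 1447) to 1958 to 4852 in DK (median 3699.5), also without overlap (1.53, SE 0.25, adjusted p = 0.00061).

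The same 2 DK libraries, replicates 5 and 6, were the highest for Slc38a3 and Glud1, and replicate 1 was the lowest. The channels that move ammonia across collecting duct cells rose as well, Rhbg by 0.97 (adjusted p = 0.00158) and Rhcg by 0.76 (adjusted p = 0.0044). Rhbg had medians of 30.1 and 57.6 FPKM in NK and DK, and Rhcg 47.2 and 74.5, with overlap between the groups for both. The mitochondrial carrier Slc25a10 rose by 0.46 (adjusted p = 0.0186) and the aminotransferase Got2 by 0.30 (adjusted p = 0.0381), and these calls ended in 2 and 7 of the 12 leave-one-out fits, with adjusted p up to 0.0604 and 0.1215. Glul, which consumes ammonia to make glutamine, stood at medians of 706 and 718 FPKM, a log2 change of -0.10 (adjusted p = 0.757). With the number series as a covariate Slc38a3, Glud1 and Pck1 passed (limma adjusted p = 0.016, 0.00467 and 0.00864), and Rhbg and Rhcg did not (0.0719 and 0.103).

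**Figure D2:**
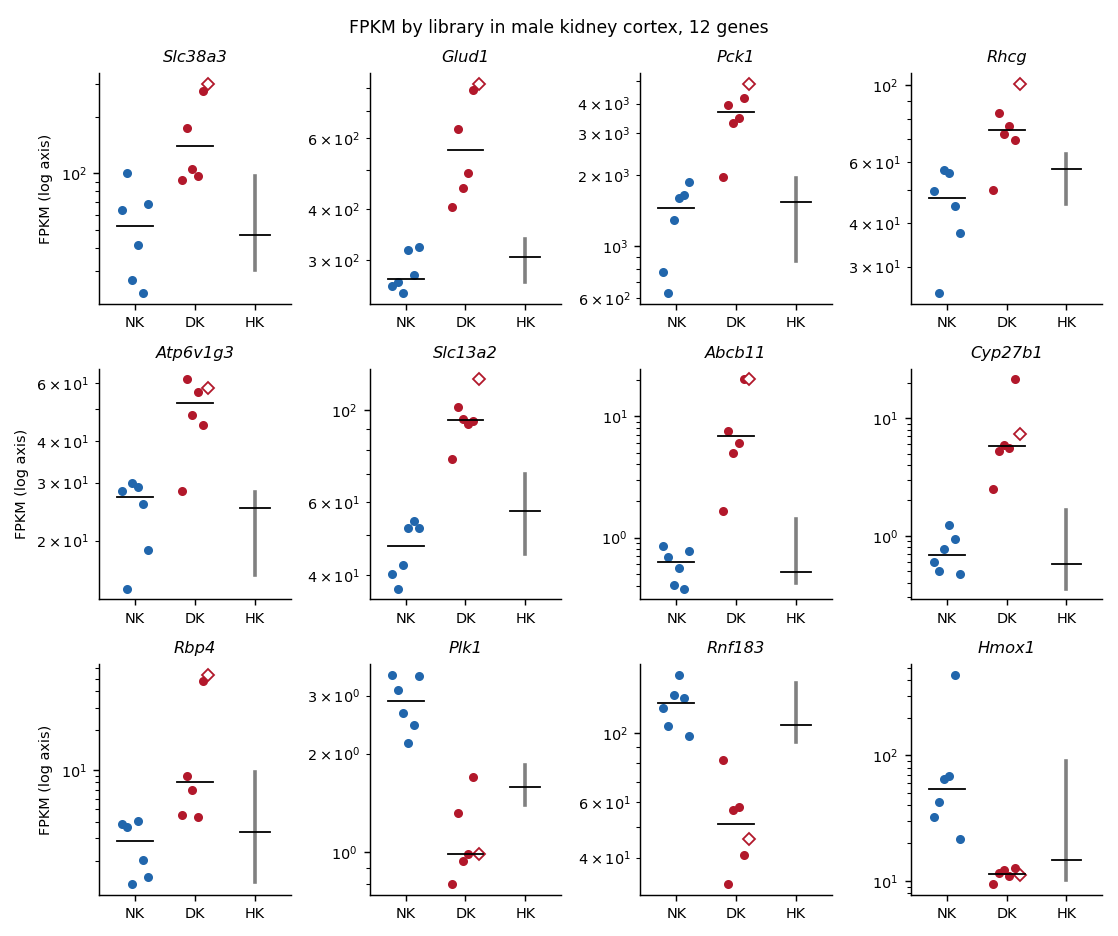
FPKM of 12 genes in single male libraries (vertical log axes), with NK as blue points, DK as red points (open diamond, DK replicate 6) and black lines at medians. The grey bar spans the lowest to highest of 6 HK libraries. Pck1 and Glud1 show no overlap of DK with NK, Rbp4 is high in DK replicates 5 and 6, and Hmox1 is high in NK replicate 5.

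Genes of the proton pump and of intercalated cells rose as well. The vacuolar proton pump is used by these cells to acidify the urine and also acidifies lysosomes. Its list had 11 of 21 members higher (52.4%, against 2.92% of all genes) and none lower, with a median log2 change of 0.30. The count was 5 without DK 2 or NK 2, 6 without DK 4, DK 6 or NK 1 and 7 without DK 5. With library sums 7 were higher and 1 lower, with a median of 0.16. The intercalated cell list had 10 of 20 higher (50%) and none lower, with a median of 0.59. The count was 6 without DK 2 or NK 2 and 8 with library sums. The pump and intercalated lists share 4 of their risen members, and Rhbg and Rhcg are in both the ammonia and the intercalated list. Atp6v1g3, a pump subunit found in intercalated cells, ranged from 14.3 to 29.8 FPKM in NK (median 27.1) and from 28.2 to 61.7 in DK (median 52.2), and its log2 change was 1.01 (SE 0.19, limma adjusted p = 0.0023). DK replicate 1 was within the NK range and the other 5 DK libraries above it. Atp6v0d2 rose by 0.79 (adjusted p = 0.00631), Atp6v1c2 by 0.76 (0.00974) and Atp6v0a4, a subunit mutated in inherited renal tubular acidosis, by 0.63 (0.00909). Atp6v0a4 stood between 93.3 and 157.5 FPKM in NK and between 166.5 and 246 in DK, with no overlap. Atp6v1h, a subunit present in most cells, rose by 0.45 (adjusted p = 0.00824), from a median of 43.2 to 57.1 FPKM, also without overlap.

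Among the 10 risen members of the intercalated list was 1 exchanger of each intercalated cell type. The 10 members not called included Slc4a9, Foxi1, Kit and Car2, and 2 of the 20 had a negative change. Slc4a1, the basolateral anion exchanger of alpha cells, ranged from 16 to 31.5 FPKM in NK (median 24.6) and from 34.6 to 54.7 in DK (median 39.2). The groups did not overlap, and the log2 change was 0.79 (SE 0.17, limma adjusted p = 0.00705). Slc4a1 is also the band 3 protein of red cells, and the blood list, in which it was the single call among 6 tested members, summed to 55.2 to 225.4 FPKM in DK and 122.4 to 313.3 in NK. Slc26a4, the chloride and bicarbonate exchanger pendrin of beta cells, rose by 1.01 (SE 0.26, adjusted p = 0.023), from a median of 21 to 38.8 FPKM with overlap. Its call ended in 4 of 12 leave-one-out fits, with adjusted p up to 0.0816. Insrr, a receptor of intercalated cells that senses alkaline medium, rose by 0.88 (adjusted p = 0.0215, ended in 2 fits, up to 0.0792) and Atp6v1b1 by 0.56 (0.0458, ended in 8 fits, up to 0.145). None of the members of either list passed with the number series as a covariate, where the list medians were 0.20 for the pump and 0.56 for intercalated cells. In these bulk samples more cells of a type and more RNA per cell cannot be told apart. Atp12a, the colonic proton-potassium pump, stood at medians of 0.428 FPKM in NK and 1.45 in DK (log2 change 0.68, SE 0.36, adjusted p = 0.295).

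Genes of fatty acid oxidation rose. All 30 tested members had a positive change, with a median log2 change of 0.39. Of them 14 were called higher (46.7%, against 2.92% of all genes) and none lower. The count was 5 without NK 2, 6 without DK 2 or DK 4, 9 without DK 5, and 11 with library sums. Acsl1, which activates fatty acids, ranged from 18.9 to 40.8 FPKM in NK (median 31.3) and from 35.9 to 58.3 in DK (median 48.5). DK replicate 1 was within the NK range and the other 5 DK libraries above it, and the log2 change was 0.65 (SE 0.16, limma adjusted p = 0.0163). Of other members, the isomerase Eci1 rose by 0.81 (adjusted p = 0.0233), the fatty acid hydroxylase Cyp4a1 by 0.82 (0.0261) and the thiolase Acaa2 by 0.71 (0.0257). The calls of Acsl1, Eci1, Cyp4a1 and Acaa2 ended in 1, 4, 6 and 4 leave-one-out fits, with adjusted p up to 0.0916. With the number series 4 members of the list passed, among them Acsl1 (0.0367), and the median was 0.42.

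Among the members of that list, Slc25a20, which carries acylcarnitines into mitochondria, stood between 35.5 and 39.5 FPKM in NK and between 44.5 and 58.6 in DK (log2 change 0.44, limma adjusted p = 0.00813). Slc25a20 and the genes that follow were robust and were chosen after their values were seen. The mitochondrial carrier Slc25a34 rose by 1.25 (adjusted p = 0.000831), Slc25a42, which carries coenzyme A, by 0.64 (0.000323) and Slc25a25, an ATP-magnesium and phosphate carrier, by 1.31 (0.0145). Plin3, a coat protein of lipid droplets, rose by 1.01 from a median of 34.4 to 71.3 FPKM (adjusted p = 5.8e-05), and the acyl-CoA thioesterase Acot12 from a median of 4.31 to 9.68 (0.00414). Of these 6 genes, Slc25a25 was the one whose groups overlapped. Aco1, a cytosolic aconitase that in the absence of its iron-sulfur cluster binds iron-responsive RNA elements, rose by 1.02 from a median of 95.7 to 186.8 FPKM (adjusted p = 5.8e-05), also without overlap.

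The citric acid cycle had 7 of 20 members higher (35%, against 2.92% of all genes) and none lower, with a median of 0.27. The count was 1 without NK 1 or NK 2, 2 without DK 2 or DK 4, 3 without DK 5 or DK 6, 4 without NK 3 or NK 5, 4 with library sums and 0 with the number series. Sdhb, the iron-sulfur subunit of complex II, rose by 0.40 from a median of 258.3 to 339.7 FPKM (limma adjusted p = 0.0324), a call that ended in 7 leave-one-out fits. Oxidative phosphorylation had 37 of 38 positive members and a median of 0.29, but 3 called higher (7.89%, against 2.92% of all genes), and 1 with library sums. Among the 3 were Ndufa2 at 0.45 and Uqcrc2 at 0.31. These calls ended in 8 and 9 leave-one-out fits (adjusted p up to 0.138), and none of the list passed with the number series. Of the 34 tested genes of the mitochondrial genome, 33 had a positive change, 7 were higher, against 2.92% of all genes, and none lower. Among the 13 protein-coding ones 1 was called, Mt-cytb, of complex III, from 5747 to 9315 FPKM in NK to 9834 to 12058 in DK (log2 change 0.49, limma adjusted p = 0.04, ended in 9 fits, up to 0.117). Both ribosomal RNA genes were called, at 0.70 (adjusted p = 0.00335) and 0.48 (0.02, ended in 3 fits, up to 0.0653). Of 19 transfer RNA genes 4 were called, at 0.60 to 1.21, the highest with means of 35.6 FPKM in NK and 76.4 in DK (adjusted p = 0.00474). The libraries were poly-T selected, and how ribosomal and transfer RNA came into them was not tested. None of the 7 passed with the number series. Under quantile normalization the median of a list of 12 of the protein-coding ones went from 0.37 to 0.03. The part of the mitochondrial read share in the changes of the nuclear energy genes was not tested.

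**Figure D3:**
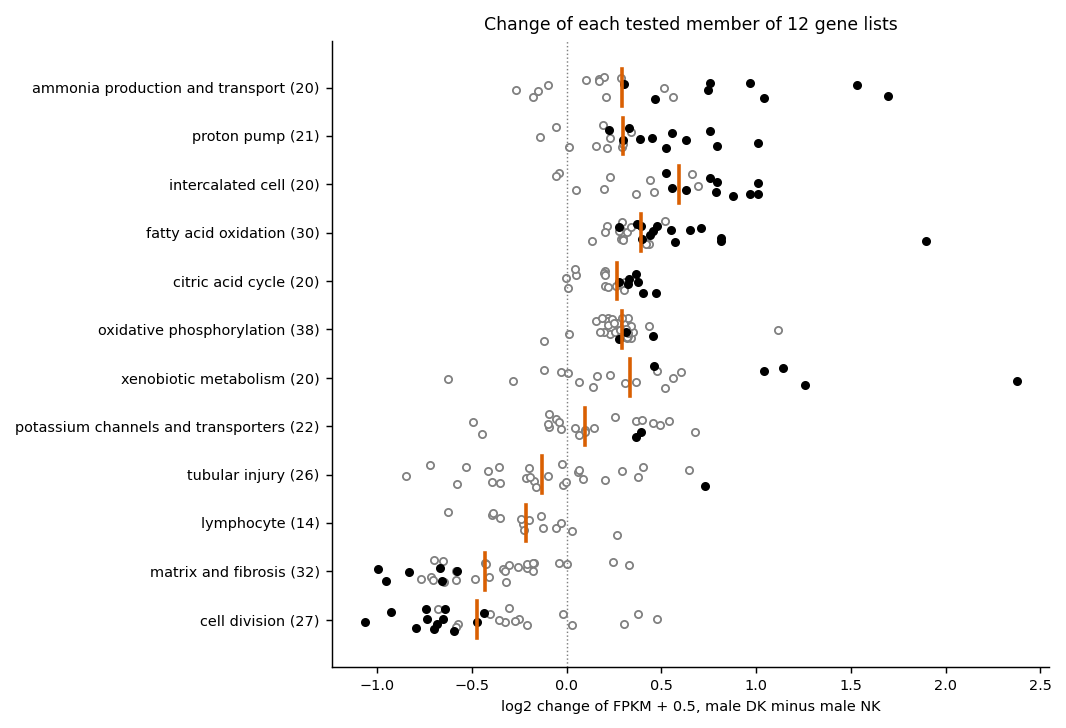
Log2 change of FPKM + 0.5 in male DK minus NK (horizontal axis) for every tested member of 12 gene lists (1 row each, number of members in brackets). Filled points are called genes, open points are not, and orange lines are list medians. Fatty acid oxidation lies entirely above 0, and the called members of the matrix and cell division lists lie below 0.

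Of the other large rises, Abcb11, the bile salt export pump, stood between 0.378 and 0.844 FPKM in NK (median 0.626) and between 1.64 and 20.1 in DK (median 6.8). No library overlapped, and the log2 change was 2.87 (SE 0.36, limma adjusted p = 3.6e-05). Fam25a, a small protein of unclear function, ranged from 1.55 to 3.29 FPKM in NK and from 4.82 to 187.5 in DK, a log2 change of 3.52 (SE 0.50, adjusted p = 8.8e-05), with DK replicates 5 and 6 far above the others. Cyp27b1, which hydroxylates vitamin D to its active form, went from 0.473 to 1.25 FPKM in NK (median 0.685) to 2.5 to 21.4 in DK (median 5.76). The change was 2.51 (SE 0.34, adjusted p = 5.8e-05), again without overlap. Of the 19 tested genes of its list 3 rose and 1 fell (21.1% called, against 4.77% of all genes). Besides Cyp27b1, the phosphate transporter Slc20a1 rose by 0.47 (adjusted p = 0.00657). Calb1, a calcium buffer of the distal tubule, rose by 1.24 (0.0242, ended in 3 fits, up to 0.0825). The fall was that of the growth factor receptor Fgfr1, at -0.30 (0.0315), and it lost its call with the number series. The phosphate transporter Slc34a1 had medians of 1295 and 1382 FPKM (adjusted p = 0.678).

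Slc13a2, which takes up citrate and other dicarboxylates from the tubular fluid, ranged from 37.1 to 54.1 FPKM in NK (median 47.1) and from 76.1 to 118.7 in DK (median 94.7). It rose by 1.05 (SE 0.14, limma adjusted p = 5.8e-05) with no overlap. It was 1 of 2 called members of the 30 of proximal tubule transport (6.67%, against 4.77% of all genes). The other was the lactate transporter Slc5a12 at 0.72 (0.0432, ended in 8 fits, up to 0.138). The nucleoside transporter Slc28a1, chosen after its values were seen, rose by 1.21 (adjusted p = 0.000261), the zinc transporter Slc39a4 by 1.47 (0.000203) and Tmed6, of the cargo receptor family of the secretory pathway, by 1.74 (9.3e-05). Fdft1, the squalene synthase, rose by 0.58 (0.00117) and was the single called gene of 24 in cholesterol synthesis (4.17%, against 4.77%). In these 4 genes, too, no DK library overlapped NK. All genes of this and the preceding paragraph with an adjusted p under 0.002 were robust. G6pc, the phosphatase that releases glucose, rose by 0.86 from a median of 87.2 to 136.5 FPKM (adjusted p = 0.0429, ended in 9 fits, up to 0.131).

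Enzymes that process foreign compounds had 5 of 20 members higher (25%, against 2.92% of all genes) and none lower, with a median of 0.34. Cyp1a1, a hydroxylase induced through the aryl hydrocarbon receptor, stood between 0.646 and 1.83 FPKM in NK (median 1.08) and between 4.2 and 13.7 in DK (median 7.43). Its log2 change was 2.38 (SE 0.41, limma adjusted p = 0.000782), without overlap, and with the number series the adjusted p was 0.0906. Cyp2e1 rose by 1.26 from a median of 113 to 244 FPKM (adjusted p = 0.000887), the epoxide hydrolase Ephx1 by 1.04 (0.0109) and the glutathione transferase Gstm1 by 1.14 (0.038, ended in 9 fits, up to 0.103). Outside that list, the transferase Gsta3 rose by 1.51 (0.000831) and Hsd17b2, which inactivates estradiol and testosterone, by 1.46 (0.000549), both robust. Amino acid catabolism had 6 of 33 higher (18.2%), led by the glycine decarboxylase Gldc at 1.51 (0.00187), whose medians were 21 and 57.4 FPKM with no overlap. The count was 2 without DK 2, DK 4, DK 5, DK 6, NK 1 or NK 2, 3 without NK 5 and 0 with the number series, and with library sums 3 were higher and 2 lower. The tyrosine catabolic enzyme Hpd rose by 0.61 (0.0479, ended in 9 fits, up to 0.141).

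Of the antioxidant and iron genes, 3 of 28 rose and 1 fell (14.3% called, against 4.77% of all genes). With library sums 2 rose and 2 fell. Gpx1, the glutathione peroxidase, rose by 0.75 from a median of 1080.9 to 1950.0 FPKM (limma adjusted p = 0.0129), with DK replicate 1 inside the NK range. Tfrc, the transferrin receptor, rose from a median of 5.91 to 12.2 FPKM without overlap (adjusted p = 0.00108). Hmox1, the heme oxygenase, stood between 9.41 and 12.8 FPKM in all 6 DK libraries and between 21.4 and 68.8 in 5 NK libraries, with NK replicate 5 at 438.9. The groups did not overlap and the log2 change was -2.42 (SE 0.72, adjusted p = 0.0456), but the call ended in 11 of 12 leave-one-out fits (up to 0.123, without NK 5). Rbp4, which carries retinol in plasma, was at 47.9 and 53.5 FPKM in DK replicates 5 and 6 and between 4.37 and 9.01 in the other DK libraries, against 1.32 to 4.06 in NK. Its log2 change of 2.10 (SE 0.60, adjusted p = 0.0391) passed with the number series (0.00831) and in 4 of 12 leave-one-out fits (up to 0.109, without DK 6).

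The highest rises also held genes of low level or unclear role. Rup2 had a median of 0.211 FPKM in NK, where 3 libraries were at 0, and 2.98 in DK (log2 change 1.99, limma adjusted p = 0.00108). The kallikrein Klk1c10, a member of a family of near-identical genes whose reads may be split between them, had medians of 0.298 and 2.83 (1.91, adjusted p = 0.0242, ended in 5 fits, up to 0.0813), with DK 1 and 5 near the NK level. Vstm2a, at 1.62 (0.00216), the cartilage matrix protein Matn1, at 1.69 (0.00216), and Glt1d1, at an adjusted p of 0.000117, also had medians of 7.12 FPKM or less in DK. Gp2, a relative of Umod, rose from a median of 6.84 to 24.6 FPKM (1.63, adjusted p = 0.00151). By difference of FPKM the largest rises outside energy and ammonia genes included the lysosomal genes Cd63 and Lgmn, with medians of 783.5 and 769.9 FPKM in NK and 1229 and 1030.1 in DK, at 0.54 (0.00573) and 0.42 (0.0456, ended in 10 fits, up to 0.123). Pebp1, a kinase inhibitor protein, rose by 0.65 without overlap (0.008).

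Genes of cell division fell. The list had 12 of 27 members lower (44.4% of the list, against 1.85% of all genes) and none higher, with a median log2 change of -0.47, and 6 of the 12 were robust. All stood at low levels. Plk1, the kinase that drives entry into and progress through mitosis, ranged from 2.15 to 3.47 FPKM in NK (median 2.9) and from 0.8 to 1.7 in DK (median 0.991), without overlap. It fell by 1.07 (SE 0.16, limma adjusted p = 0.000255). Prc1, which bundles the microtubules of the spindle midzone, fell by 0.93 (SE 0.22, adjusted p = 0.0109), from a median of 5.02 to 2.12 FPKM. Mki67, the proliferation antigen, fell by 0.74 (SE 0.15, adjusted p = 0.00446), from 1.7 to 2.64 FPKM in NK to 0.827 to 1.34 in DK. For Plk1, Prc1 and Mki67 every DK library lay below every NK library.

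Ccnb1, the mitotic cyclin, fell by 0.80 (limma adjusted p = 0.0031) and Top2a, the topoisomerase of dividing cells, by 0.74 (0.00717). In both, DK replicate 2 stood above the other DK libraries, at 4.83 and 2.67 FPKM, within the NK range. Tpx2, a spindle assembly factor, fell by 0.70 (0.00427), the kinesin Kif23 by 0.69 (0.0129), the kinetochore protein Cenpf by 0.65 (0.00384) and, outside the list, the kinesin Kif22 by 0.82 (0.00205). Pttg1, the securin, which is also outside the list, fell by 0.85 (0.0162, ended in 1 fit, 0.0517). With the number series as a covariate 6 members were lower and the median was -0.52, and with library sums 17 were lower. None of the genes of the DNA replication clamp and helicase in the list was among the 12.

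To show what these falling genes carry just upstream of their start, 100 bases before the RefSeq start (GRCr8, read 5' to 3' on the strand of the gene) are given for 5 of them. The capitals mark the 6 letters TTTGAA, or TTCAAA where the match is on the opposite strand, which are the core of an element described in promoters of mitotic genes.
Prc1, chr1:143659381-143659480, plus strand: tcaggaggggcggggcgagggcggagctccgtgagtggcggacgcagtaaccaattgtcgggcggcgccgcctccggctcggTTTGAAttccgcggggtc
Top2a, chr10:84473094-84473193, minus strand: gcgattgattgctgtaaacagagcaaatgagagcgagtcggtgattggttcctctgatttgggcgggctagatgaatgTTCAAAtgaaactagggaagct
Kif23, chr8:71320585-71320684, minus strand: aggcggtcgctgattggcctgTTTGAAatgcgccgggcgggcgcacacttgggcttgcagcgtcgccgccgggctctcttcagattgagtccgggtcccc
Mki67, chr1:199952594-199952693, minus strand: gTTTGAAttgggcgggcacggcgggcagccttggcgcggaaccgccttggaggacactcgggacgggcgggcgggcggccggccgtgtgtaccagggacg
Plk1, chr1:186147558-186147657, plus strand: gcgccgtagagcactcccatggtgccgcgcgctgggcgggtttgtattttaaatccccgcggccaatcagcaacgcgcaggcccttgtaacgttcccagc

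The letters begin 18 bases before the start in Prc1, 22 in Top2a, 79 in Kif23 and 99 in Mki67, and are not in the stretch of Plk1. Over 250 bases before the start and both strands, they occurred in 4 of the 9 called cell division genes with a RefSeq window (44.4%) and in 8 of the 21 tested ones (38.1%). The share was 13.7% of the genes called lower, 10.3% of tested genes and 16.1% of all 24206 windows. A match is a description of these letters and not a binding site. In the same windows CACGTG, the E-box, occurred in 7.72% of genes called higher, 6.86% of those called lower and 8.35% of genes tested, and GCGTG, the core bound by the aryl hydrocarbon receptor, in 37.2%, 46.3% and 44.4%. The exact direct repeat with a spacer of 1 base that PPAR and HNF4 bind occurred in 2 of 8888 windows of tested genes (0.0225%). It was in none of the 285 windows of genes called higher or the 175 of those called lower. With so few matches among tested genes, its absence there says nothing about the called ones.

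Genes of the extracellular matrix also fell. Of 32 tested members 6 were lower (18.8% of the list, against 1.85% of all genes) and none higher. A negative change was seen in 29, and the median was -0.43. The count was 2 without DK 2 or DK 4, 3 without DK 5 or DK 6, and 9 with library sums. Loxl2, an oxidase that cross-links collagen, ranged from 7.88 to 11.7 FPKM in NK (median 9.59) and from 3.19 to 7.72 in DK (median 4.5), without overlap, a fall that passed the test (limma adjusted p = 0.00217). The protease Adamts4 fell by 0.95 (adjusted p = 0.0117), also without overlap. Eln, elastin, had a median of 9.18 FPKM in NK and 4.35 in DK and fell by 0.83 (0.0203, ended in 3 fits, up to 0.0628).

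The basement membrane collagens Col4a1 and Col4a2 fell by 0.58 and 0.66 (limma adjusted p = 0.04 and 0.023), from medians of 142.6 and 95.9 FPKM to 96 and 59.6, without overlap. Col5a1 fell by 0.67 (adjusted p = 0.0368), likewise without overlap. These 3 calls ended in 9, 3 and 9 leave-one-out fits, with adjusted p up to 0.092. Col1a1, the fibrillar collagen, stood at medians of 41.2 and 22.1 FPKM, and the log2 change was -0.72 (SE 0.30, adjusted p = 0.159). With the number series none of the list passed and the median was -0.32. The list of smooth muscle, pericyte and mesangial markers, cells that make matrix, summed to 147 to 213 FPKM in DK and 196.6 to 272.1 in NK, with none of 14 members called and a median of -0.26. Its part in the matrix change was not tested.

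Among the other falls, Rnf183, a ubiquitin ligase, was the largest of the robust ones. It ranged from 98.2 to 153.6 FPKM in NK (median 124.9) and from 32.8 to 81.8 in DK (median 51.2), without overlap, and fell by 1.26 (SE 0.23, limma adjusted p = 0.00144). F2, prothrombin, fell by 1.11 (adjusted p = 0.00405), the adherens junction protein Arvcf by 0.48 (0.0137), the clathrin assembly protein Snap91 by 0.70 (0.00328) and Rab3il1, an exchange factor for Rab proteins, by 0.47 (0.00877), all 4 robust with overlap of the groups. Ppp1r1b, a phosphatase inhibitor known as DARPP-32, had medians of 32.85 and 10.2 FPKM and fell by 1.48 (0.0333, ended in 8 fits, up to 0.102). Wdr86 fell by 1.18 (0.00725) and the transporter family member Spns3 by 0.90 (0.00356), both without overlap. The synaptotagmin Syt13 fell by 0.93 (0.00974), the cytokine Lif by 0.89 (0.0341, ended in 7 fits, up to 0.0895) and the adaptor Sh2d1b by 0.87 (0.0234, ended in 4 fits, up to 0.0721).

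By difference of mean FPKM, Tgm2 had the largest called fall after Hmox1. Tgm2, the tissue transglutaminase, stood between 233.3 and 301.5 FPKM in NK and between 118.6 and 231.9 in DK (log2 change -0.62, limma adjusted p = 0.0456, ended in 10 fits, up to 0.119). Rhob, a small GTPase, fell by 0.64 (adjusted p = 0.0129) and Cldn4, a tight junction claudin, by 0.76 (0.0178, ended without NK 2 at 0.0581), neither with overlap. Lgals1, galectin-1, fell by 0.57 (0.0308, ended in 5 fits, up to 0.0792) and the kinase Cdkl1 by 0.57 (0.0268, ended in 6 fits, up to 0.0785). Of these 5 genes Tgm2 alone passed with the number series (adjusted p = 0.0274).

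Of 22 tested potassium channels and transporters 2 rose (9.09%, against 2.92% of all genes), with a median of 0.10. None rose with library sums, where the median was -0.03. Of the 2 that rose, Atp1b1, a subunit that accompanies the basolateral sodium pump, changed by 0.39 (medians 1049.6 and 1394 FPKM, limma adjusted p = 0.0152). Its call ended with library sums (adjusted p = 0.0523) and in 1 leave-one-out fit (0.0511). The secretory channel Kcnj1 had medians of 51.8 and 62.7 FPKM (0.36, SE 0.16, adjusted p = 0.178) and the basolateral channel subunit Kcnj16 of 303.9 and 385 (0.45, SE 0.14, adjusted p = 0.0614). In the distal convoluted tubule list 3 of 18 rose and 1 fell (22.2% called, against 4.77%). None was higher without DK 2, DK 6 or NK 2, and 1 with library sums. Wnk4, a kinase that activates the sodium-chloride cotransporter, rose by 0.45 from a median of 5.33 to 7 FPKM (0.0341, ended in 5 fits, up to 0.1002).

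Slc12a3, the cotransporter itself, ranged from 34.9 to 120.5 FPKM in NK and from 74.3 to 114 in DK, and its log2 change was 0.14 (SE 0.21, limma adjusted p = 0.753). The epithelial sodium channel subunits Scnn1a and Scnn1g stood at 0.46 (SE 0.15, adjusted p = 0.0737) and 0.37 (SE 0.17, adjusted p = 0.206). Among genes of the aldosterone and principal cell list Fkbp5, a gene induced by corticosteroids, rose from 8.95 to 26.6 FPKM in NK to 27.5 to 34.6 in DK without overlap (1.03, adjusted p = 0.00887), and Aqp4, the basolateral water channel, from a median of 0.868 to 2.78 (1.31, adjusted p = 0.00706). These were the called members among 21 (9.52%, against 4.77% of all genes). Fkbp5 lost its call with the number series (adjusted p = 0.492) and Aqp4 did not (0.0265). Sostdc1, a BMP antagonist made in the distal nephron, rose by 0.89 (0.00217). It was 1 of 2 called members of 15 in the thick ascending limb list (13.3%, against 4.77% of all genes), where 1 was higher with library sums. The 13 tested medullary markers held 1 rise, Aqp4, and 1 fall, the claudin Cldn4 (15.4% called, against 4.77%).

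Ace, the angiotensin-converting enzyme, had medians of 1.56 FPKM in NK and 2.02 in DK (log2 change 0.14, SE 0.18, limma adjusted p = 0.716). Of 19 genes of the angiotensin, kinin and endothelin list (15.8% called, against 4.77%) 2 rose and 1, the endothelin-converting enzyme Ece1, fell, by 0.32 (0.0326, ended in 5 fits, up to 0.098). Of 26 tubular injury genes 1 was called (3.85%, against 4.77%). It was the keratin Krt8, which rose by 0.73 from a median of 195 to 362.1 FPKM (0.023, ended in 5 fits, up to 0.0672). Lcn2, a secreted marker of tubular injury, ranged from 48.8 to 114.7 FPKM in NK and from 35.2 to 144.7 in DK (0.06, SE 0.36, adjusted p = 0.951). Havcr1, also called KIM-1, had medians of 76.3 and 42 (-0.85, SE 0.43, adjusted p = 0.261), and the secreted phosphoprotein Spp1 of 4364 and 3046 (-0.41, SE 0.32, adjusted p = 0.506). Umod and Egf, both made in the distal nephron, stood at 0.35 (SE 0.20, adjusted p = 0.312) and 0.56 (SE 0.23, adjusted p = 0.158). Of the panel of 38 tested genes of transport, pressure control and injury as a whole, 9 rose (23.7%, against 2.92%) and none fell. The panel, like the lists, was chosen with earlier results of these data known.

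For markers of immune and stromal cells the calls were 0 or 1 in each list, too few to set apart from the background. None of 14 lymphocyte, 14 smooth muscle and mesangium, 21 endoplasmic reticulum stress, 13 osmotic and heat shock and 16 hypoxia genes passed in limma, against a background of 4.77%. With an unadjusted p under 0.05 in limma there were 2, 5, 5, 0 and 5 in these 5 lists. Voom on recovered reads, which kept the library sizes of the authors' scaling, called none of them either. With library sums 3 endoplasmic reticulum stress genes, 1 hypoxia gene and 3 macrophage genes were lower. Quantile normalization gave 1 lower endoplasmic reticulum stress gene. Lymphocyte genes summed to 51.7 to 74.2 FPKM in DK and 60.9 to 92.2 in NK. The interferon-induced Rsad2 fell by 0.64 without overlap (limma adjusted p = 0.0113) as the single call among 25 interferon genes. The chemokine Ccl2, at -0.67 (0.0463, ended in 8 fits, up to 0.1225), was the call among 24 macrophage genes, Cdh5, the endothelial cadherin, at -0.33 (0.0497, ended in 10 fits, up to 0.139), among 16 endothelial genes, Tcf21, at -0.54 (0.0432, ended in 10 fits, up to 0.105), among 14 podocyte genes, and Klf6, at -0.62 (0.0386, ended in 8 fits, up to 0.0979), among 16 immediate early genes. Of 9 adrenal genes with deposited values, 1 passed the filter, the steroid enzyme Cyp11a1, which rose from 3.13 to 5.57 FPKM in NK to 3.81 to 17.6 in DK (0.83, adjusted p = 0.0386, ended in 8 fits, up to 0.114). The adrenal list summed to 5.5 to 19.7 FPKM in DK and 4.86 to 6.8 in NK.

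Of 18 tested clock genes 2 rose and 2 fell (22.2% called, against 4.77% of all genes). With library sums 1 rose and 2 fell. Arntl, also called Bmal1, the activator of the clock, stood between 0.98 and 1.18 FPKM in DK replicates 1 to 4, at 3.08 in DK 5 and at 3.6 in DK 6, and between 1.82 and 4.71 in NK. Its fall of 0.88 (SE 0.26, limma adjusted p = 0.046) ended in 9 leave-one-out fits (up to 0.118), and with the libraries numbered in the 300s alone it was 0.07 (adjusted p = 0.965). Npas2, its relative and a partner of the same kind as Clock, fell by 0.81 (adjusted p = 0.0145), from a median of 1.71 to 0.552 FPKM. The repressors Cry1 and Per2 rose by 1.09 (0.00561) and 0.77 (0.0392, ended in 9 fits, up to 0.102), from medians of 1.81 and 8.3 FPKM to 4.81 and 15.8. In NK replicate 5, Arntl and Npas2 were the lowest and Cry1 and Per2 the highest of the 6 NK libraries. The hour of tissue collection was not given in the sources used here, and its part in these values was not tested. None of the 4 passed with the number series (adjusted p = 0.195 or more).

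**Figure D4:**
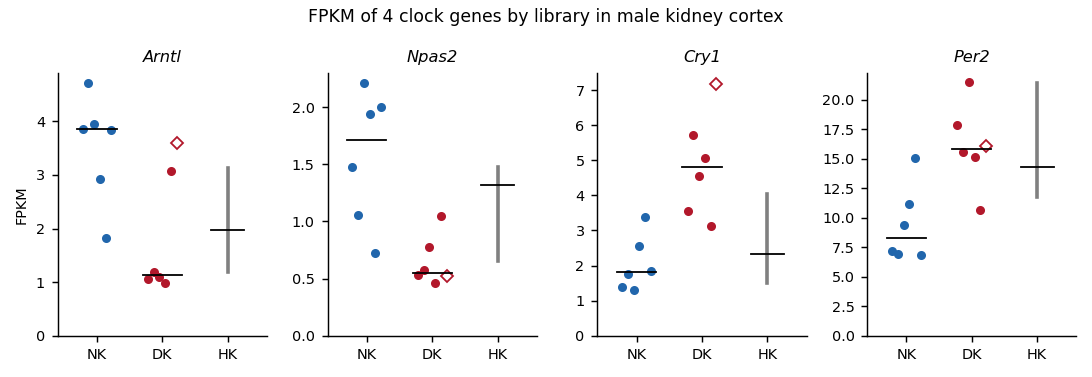
FPKM of 4 clock genes in single male libraries (vertical axes from 0), with NK as blue points, DK as red points (open diamond, DK replicate 6), black lines at medians and a grey bar over the range of 6 HK libraries. Arntl is near 1 FPKM in 4 DK libraries and above 3 in the other 2.

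The males' changes were next set beside those of the females on the same diets, which share no library with them. Of the 680 genes 637 (93.7%) had the same direction in females, against 69.3% of all tested genes, and 509 were also called in that direction in females. In females 39.1% of tested genes were called. Across the tested genes Pearson's r of the male and female changes was 0.4663, as a description, since genes are not independent replicates. The sex difference in the change itself was called for 1420 genes (9.96%), with the male change the lower for 733 (5.14%) and the higher for 687 (4.82%). Of the 1420, 113 were called in males. For 78 of the 113 the male change was the smaller of the same direction, for 3 the larger, and for 32 the directions were opposite. Most of the 1420, 1265, were called in females and not in males.

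Rbp4 rose to a median of 523.4 FPKM in female DK against 8.01 in male DK, a difference of -4.57 (males minus females, SE 0.85, limma adjusted p = 0.000527). Slc38a3 reached 942.7 FPKM in female DK and 140.4 in male DK from like NK levels of 54.6 and 52.4 (-2.17, adjusted p = 0.00588), Glud1 1245 and 562 (-0.92, 0.00657) and Abcb11 54 and 6.8 (-2.84, 0.0004). Pck1 and the proton pump subunit Atp6v1g3 rose in both sexes with differences of -0.91 (adjusted p = 0.103) and 0.05 (0.94) that did not pass. Gatm, an enzyme of creatine synthesis, had a median of 113.8 FPKM in female DK and 1040.4 in male DK (2.68, 0.000681), and Oacyl 0.1003 and 0.158 from NK levels of 10.5 and 1.04 (3.37, 2.69e-06). Neither changed by the test in males (adjusted p = 0.28 and 0.0843). Lcn2, Ace and Krt8 also differed, at -2.14 (0.00601), -1.32 (0.00056) and -1.26 (0.00228), with the higher change in females.

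Some genes differed in direction or rose in males without a call in females. Hmox1 fell in males and rose by 1.99 in females (difference -4.40, limma adjusted p = 0.00437), and Arntl fell in males and rose by 1.45 in females (-2.33, 7e-05). Rup2 was at 0 in the median of both female groups (1.99, adjusted p = 0.00837), and Fdft1, with medians of 97.4 and 97.3 FPKM in female NK and DK, rose in males alone by the test (0.56, 0.0112). Cyp1a1 and Calb1 had differences of 1.57 (0.0788) and 1.25 (0.0817), which did not pass. With the number series as a covariate 57 sex differences passed. In females the 200s hold 4 NK libraries and no DK library, the reverse of the males, so the series and the sex difference cannot be told apart in most genes.

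**Figure D5:**
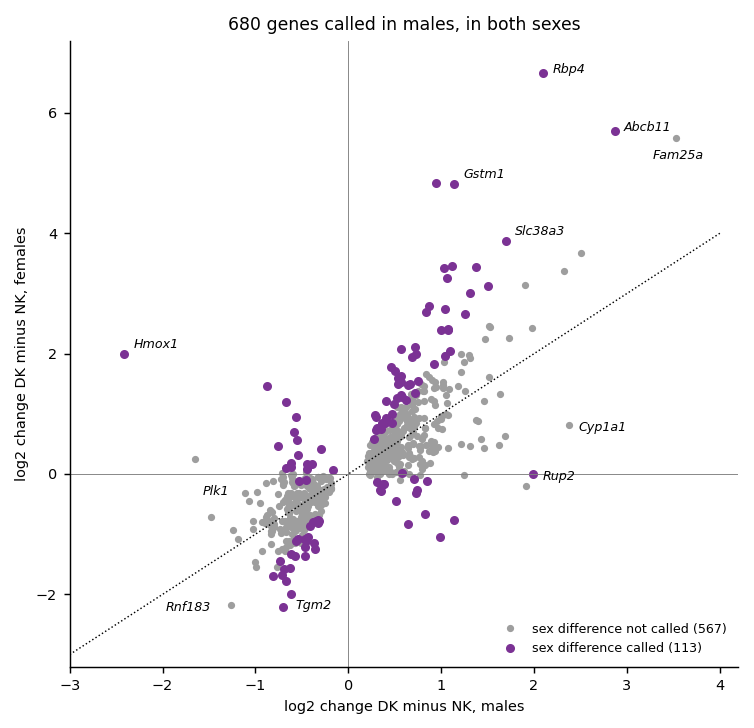
Log2 change of FPKM + 0.5 in DK minus NK in males (horizontal axis) and females (vertical axis) for the 680 genes called in males, 1 point each. Purple points (113) had a called sex difference, and the dotted line marks equal change. Rbp4 lies far above the line, at 2.10 in males and 6.66 in females, and Hmox1 lies in the quadrant of opposite direction.

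Levels in the third male diet, HK, are given beside these, with no test since the NK libraries are shared. The HK libraries, like those of NK, all carry sample numbers in the 300s, and most DK libraries do not. Slc38a3 had a median of 47 FPKM in HK, Glud1 304.9, Pck1 1528 and Abcb11 0.519, each near the NK median and below the DK one. Plk1 stood at 1.58 FPKM in HK, between DK at 0.991 and NK at 2.9, and Prc1 at 3.42, between 2.12 and 5.02. Hmox1 had a median of 14.8 FPKM in HK, nearer to DK at 11.3 than to NK at 53.8. Col4a1, with 100.8 FPKM in HK, was also nearer to DK at 96 than to NK at 142.6. Cyp1a1 had a median of 5.02 FPKM in HK and spread from 1.31 to 8.03.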

How the data were processed

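The authors deposited 1 table of FPKM values for 32545 genes, with gene lengths. The submitters' processing notes name featureCounts 1.5.0-p3, StringTie 1.3.3b, HISAT2 2.0.5 and fastp, with no role. The genome build was not given in the sources used here. Per the labels' protocols, poly-T selected RNA was made into directional or non-directional libraries, and which was made is not stated, so reads of overlapping antisense genes may not be separated. Whole reads were recovered for 100% of values within a tolerance of 0.01 read, and 9038 genes had no read.

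Deposited FPKM were used as log2(FPKM + 0.5) for the 14264 genes at 1 FPKM in 5 or more libraries. The fit took all 35 libraries, in limma 3.58.1 (R 4.3.3) with 1 mean per group, a variance trend and 29 residual degrees of freedom, with Benjamini-Hochberg adjustment over all tested genes. The sex difference was the interaction of diet and sex. The fit was tested on simulated data. Other steps used Python 3.11.15 with numpy 2.4.6, pandas 2.3.3 and scipy 1.17.1.

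The 12 libraries, the 39 gene lists and the rules were chosen with earlier results of these data known. Of 881 list and panel entries 856 matched a gene. Genes were named by rule: the 15 largest rises and falls with a mean of at least 2 FPKM in the higher group, the 10 largest robust rises and falls, the 10 largest rises and falls in FPKM, up to 8 called and 3 uncalled members per list, a fixed panel and the 10 largest sex differences each way. The text names part of these and says where a gene was chosen otherwise. Some genes are not reported here. For the 66 pairs among the 12 libraries chi-square per gene was 10.4 or more, so no 2 libraries were copies.

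Alternatives tried were no filter or 5 FPKM, a pseudocount of 1 or 0.1, library sums, median-ratio scaling, quantile normalization, voom, the number series as a covariate, the replicate number as a block, weights per library, the groups of the comparison alone, the 300s alone, and leaving out each library. Same-numbered DK and NK libraries had correlations of deviations between -0.0658 and 0.0136, so the replicate numbers do not pair them. Promoter sequences are from RefSeq (GRCr8). They were matched by symbol, and 8888 of the 13974 symbols of tested genes had a single window and were used.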

Additional observations from a re-analysis of the deposited data

Results flagged for a closer look

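The DK and NK values of 130 genes gave 260 groups of 6 libraries. In 22 of them the highest or lowest library stood apart from the other 5 by Dixon's criterion. Independent normal values meet it in about 1 of 20 groups. These were untransformed FPKM of the same 12 libraries, and 113 of the 130 genes were called. That rate therefore does not say how unusual the 22 are. NK replicate 2 was the low library in 6 of the 22: Atp6v1h at 34.76 FPKM, Sdhb at 220.3, Ephx1 at 63.65, Gstm1 at 36, Gpx1 at 866 and Lgmn at 622.5. DK replicate 5 stood apart in 6: low for Slc25a42 at 20.22 FPKM and high for Cyp27b1 at 21.4, Glt1d1 at 15.19, Tfrc at 20.39, Slc5a12 at 131.1 and Lif at 4.081. DK replicate 2 was high for the mitotic genes Ccnb1 at 4.831, Top2a at 2.673 and Kif22 at 2.531. DK replicate 1 was high for Ppp1r1b at 28.27 and Oacyl at 2.008, and DK replicate 4 low for Spns3 at 1.281, Cdh5 at 5.019 and Ece1 at 14.87. NK replicate 4 was high for Fam25a at 3.293, and NK replicate 5 for Hmox1 at 438.9.

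The difference between the sexes in the change from NK to DK (male minus female log2 change, limma interaction at an adjusted p under 0.05) was called for 31 of the 130 genes. Where both sexes rose by the test it was negative, with the higher rise in females: -2.17 for Slc38a3, -0.92 for Glud1, -1.71 for Slc25a25, -2.84 for Abcb11, -1.41 for Cyp2e1, -1.71 for Ephx1, -3.68 for Gstm1, -4.57 for Rbp4, -1.61 for Glt1d1, -0.46 for Atp1b1 and -1.26 for Krt8. Where both sexes fell by the test it was positive, with the deeper fall in females: 0.71 for Top2a, 1.38 for Tgm2, 0.89 for Snap91, 0.75 for Rab3il1, 0.785 for Cdkl1 and 1.12 for Ccl2. Rup2 gave 1.99 and Fdft1 0.56, both called in males with female changes of 0 and 0.019. Hmox1 gave -4.40 and Arntl -2.33, with falls in males and rises in females, and Cldn4 -1.22, with a fall in males and 0.46 in females (adjusted p = 0.0513). The other 9 genes did not pass in males: the difference was 1.38 for Col1a1, 0.98 for Scnn1g, -1.32 for Ace, -2.14 for Lcn2, 0.90 for Umod, 1.31 for Egf, 0.69 for Slc34a1, 3.37 for Oacyl and 2.68 for Gatm.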

How the results depend on the processing

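All 680 genes kept their direction with library sums, median-ratio scaling, quantile normalization and the number series as a covariate, and 678 did with the libraries numbered in the 300s alone, a fit that rests on 1 male DK library assumed to vary like the other groups. The number of genes called was 680 as reported. It was 1283 with library sums, 1673 with weights per library, 87 with the number series and 55 with the 300s alone, where 41 of the 55 were among the 680. It ranged from 294 to 914 when 1 library was left out, and lay between 524 and 924 under the other settings. The replicate number as a block gave 576 genes, and these numbers do not pair the libraries. The sex difference was called for 1420 genes as reported, for 2218 with weights per library, 57 with the number series and 32 with the 300s alone, for 1300 with the replicate block, and for 1083 to 1577 when 1 male library was left out. The cause of these moves was not tested. In males, 5 DK libraries and no NK library carry numbers in the 200s.

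Of the 113 called genes that were followed singly, 15 kept their call with the 300s alone, where 1 turned sign, 73 without DK 2, 73 without NK 2, 38 with the number series, 102 with library sums and 97 with the replicate block. Changes near 0 turned sign. Leaving out 1 library gave -0.192 to 0.004 for Glul, -0.117 to 0.238 for Slc12a3 and -0.131 to 0.273 for Lcn2. The sign turned without NK 2 for Glul and Slc12a3, and without DK 5, DK 6 (-0.005) or NK 4 (-0.050) for Lcn2. Lcn2 stood at -0.038 after quantile normalization and -0.076 with library sums. Arntl stood at 0.073 with the 300s alone. Depth limits genes under about 1 FPKM, such as Rup2 and Klk1c10, whose changes on this scale depend on the pseudocount.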
